A study of Mus musculus with 24 samples.

Results

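The 33 genes described here belong to the ATF4 branch of the integrated stress response, the programme by which cells meet a shortage of amino acids and related stresses. They were taken as a list of symbols that was chosen with earlier results of these data known. Each symbol was matched through GENCODE M21 to its Ensembl row in a count table of 48985 genes. All 33 symbols were found in 34 rows, because Ddit3 has a second row that held 0 counts in every library. RNA was sequenced from F121/9 cells, a female F1 hybrid mouse embryonic stem cell line that carries a CAST/EiJ and a 129/Sv genome, so that the deposited counts are separate for the allele named 129S1 and that named CAST. All lines share this hybrid background. They were grown in 2i+LIF on gelatin, that is, in serum-free medium with N-2, B-27, bovine serum albumin, 1-thioglycerol, penicillin-streptomycin, leukemia inhibitory factor, the MEK inhibitor Mirdametinib and the GSK-3β inhibitor Laduviglusib. The study compared parental lines, given the genotype control, with recombined clones, to ask how expression changed on recombination. There were 5 recombinations with a parental line each: d3 with clones 12 and 21, d6 with clone 16, i12 with clone 10, i10 with clone 18, and i7 with clones 7 and 12. Each of these 12 lines was sequenced in 2 replicates, described as biological duplicates, which gave 24 libraries. Each clone is a single isolate, so an effect of the recombination and a trait of that clone cannot be told apart. What was rearranged in each recombination is not given in the labels used here.

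In the integrated stress response, kinases that sense amino acid shortage, unfolded protein, haem deficiency or double-stranded RNA phosphorylate the translation factor eIF2. Protein synthesis then falls in general, while Atf4 mRNA is translated more, so that Atf4 mRNA is not a measure of ATF4 protein. ATF4 pairs with C/EBP proteins and binds C/EBP-ATF response elements at genes for amino acid synthesis, amino acid import, one-carbon metabolism and tRNA charging, and at genes that feed back on the response.

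The core of that element was searched as TGATGNAA, on both strands, in RefSeq promoter windows of GRCm38.p6 that run from 250 bases before to 50 after an annotated start. A window was held for 27 of the 33 genes, and 10 of the 27 (37.0%) had a match, against 1219 of all 27025 genes with a window (4.51%). The cyclic AMP response element TGACGTCA, searched the same way, was in 0 of the 27 genes and in 2.03% of all genes, so no window of these 27 held both motifs. Of the genes with a match before the start, 7 are shown, because they include genes with a wide range of levels below (Nupr1, Vldlr, Chac1 and Atf3) and Slc7a11, which moved against the others. Each stretch is the reference sequence on the strand of its gene, 5′ to 3′. Capitals mark the match, so TTGCATCA is TGATGCAA read from the other strand.
Nupr1: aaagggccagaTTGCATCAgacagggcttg
Vldlr: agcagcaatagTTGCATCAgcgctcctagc
Chac1: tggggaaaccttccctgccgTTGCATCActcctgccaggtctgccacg
Atf3: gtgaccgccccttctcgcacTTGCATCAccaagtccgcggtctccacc
Asns: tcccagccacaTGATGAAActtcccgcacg
Slc7a11: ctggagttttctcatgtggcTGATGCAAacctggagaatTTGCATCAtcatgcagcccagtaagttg
Gars: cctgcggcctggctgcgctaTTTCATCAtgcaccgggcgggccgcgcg
The Nupr1 stretch is chr7:126625562-126625591 (minus strand) and the Asns stretch chr6:7693214-7693243 (minus), each within an annotated exon of a longer transcript of the same gene. The Vldlr stretch, chr19:27216809-27216838 (plus), also lies in an annotated exon, and 30 bases are given for these 3 genes. The Atf3 stretch is chr1:191183416-191183463 (minus), in an intron of longer Atf3 transcripts. Those of Chac1 at chr2:119351029-119351076 (plus), Slc7a11 at chr3:50443633-50443699 (minus) and Gars at chr6:55037951-55037998 (plus) lie outside annotated genes. Slc7a11 held 2 matches on opposite strands. Trib3 and Iars held a match only after the start, which is not printed. Eif4ebp1, Aldh1l2, Slc7a5, Wars, Nars and Cars had no window in the table used.

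Total counts per library ran from 3286819 to 15581094, with 10383315 or more in d3 and 5189267 or fewer in i10. Markers of embryonic stem cells were high in every library (Pou5f1 511 to 1109 CPM, Nanog 985 to 2217 CPM). Of the fibroblast markers, Col3a1 and Postn reached at most 1 count, while Thy1 reached 24.5 CPM, Pdgfrb 9.14, Col1a1 3.77 and Col1a2 1.43 CPM. All 33 genes passed the filter on low counts that left 16253 tested genes. In bulk RNA, fewer cells that express a gene and less RNA per cell cannot be told apart. Gene positions are those of GENCODE M21 on GRCm38, the mm10 assembly. Levels are counts per 1000000 of the effective library size (CPM). Within a recombination the values are in the order parental line, then clones by number, first for the libraries numbered 1 and then for those numbered 2. Differences are log2 values with their standard errors. "edgeR adjusted p" is the p-value of edgeR's quasi-likelihood test after Benjamini-Hochberg adjustment over all genes tested, and a gene was called where it was under 0.05.

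Per kilobase of exon, the median levels over the 24 libraries were highest for Psat1 at 259 CPM per kb, Gars at 218, Asns at 199 and Slc3a2 at 197. They were lowest for Ddit3 at 0.559, Cebpb at 0.68 and Vldlr at 0.812, with Atf4 itself at 69.2 CPM per kb. By this measure the 4 highest levels are those of 2 amino acid synthesis enzymes, a tRNA synthetase and a transporter subunit. The 3 lowest are those of 2 transcription factors and a lipoprotein receptor. The order depends on the exon length used and on the share of a gene's reads that was assigned to an allele, which is not known. Without division by exon length, the median of Slc7a1 (878 CPM) was above those of Slc3a2 (694), Gars (680) and Asns (545). The highest library exceeded the lowest by 47.0-fold in CPM for Nupr1 and 41.5-fold for Vldlr, and by only 1.93-fold for Iars and 2.07-fold for Eif4ebp1. Relative to each gene's own median over the libraries, the median of the 33 genes was lowest, at -1.196 to -0.89 on the log2 scale, in the 5 libraries of d3 and d6 numbered 1. It was 0.003 to 0.12 in the 5 libraries of d3 and d6 numbered 2 and 0.37 to 0.59 in the 4 libraries of the i7 parental line and i7 clone 7. The 2 libraries of i7 clone 12 lay at 0.11 and 0.14, and those of i12 and i10 between -0.34 and 0.24.

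**Figure D1:**
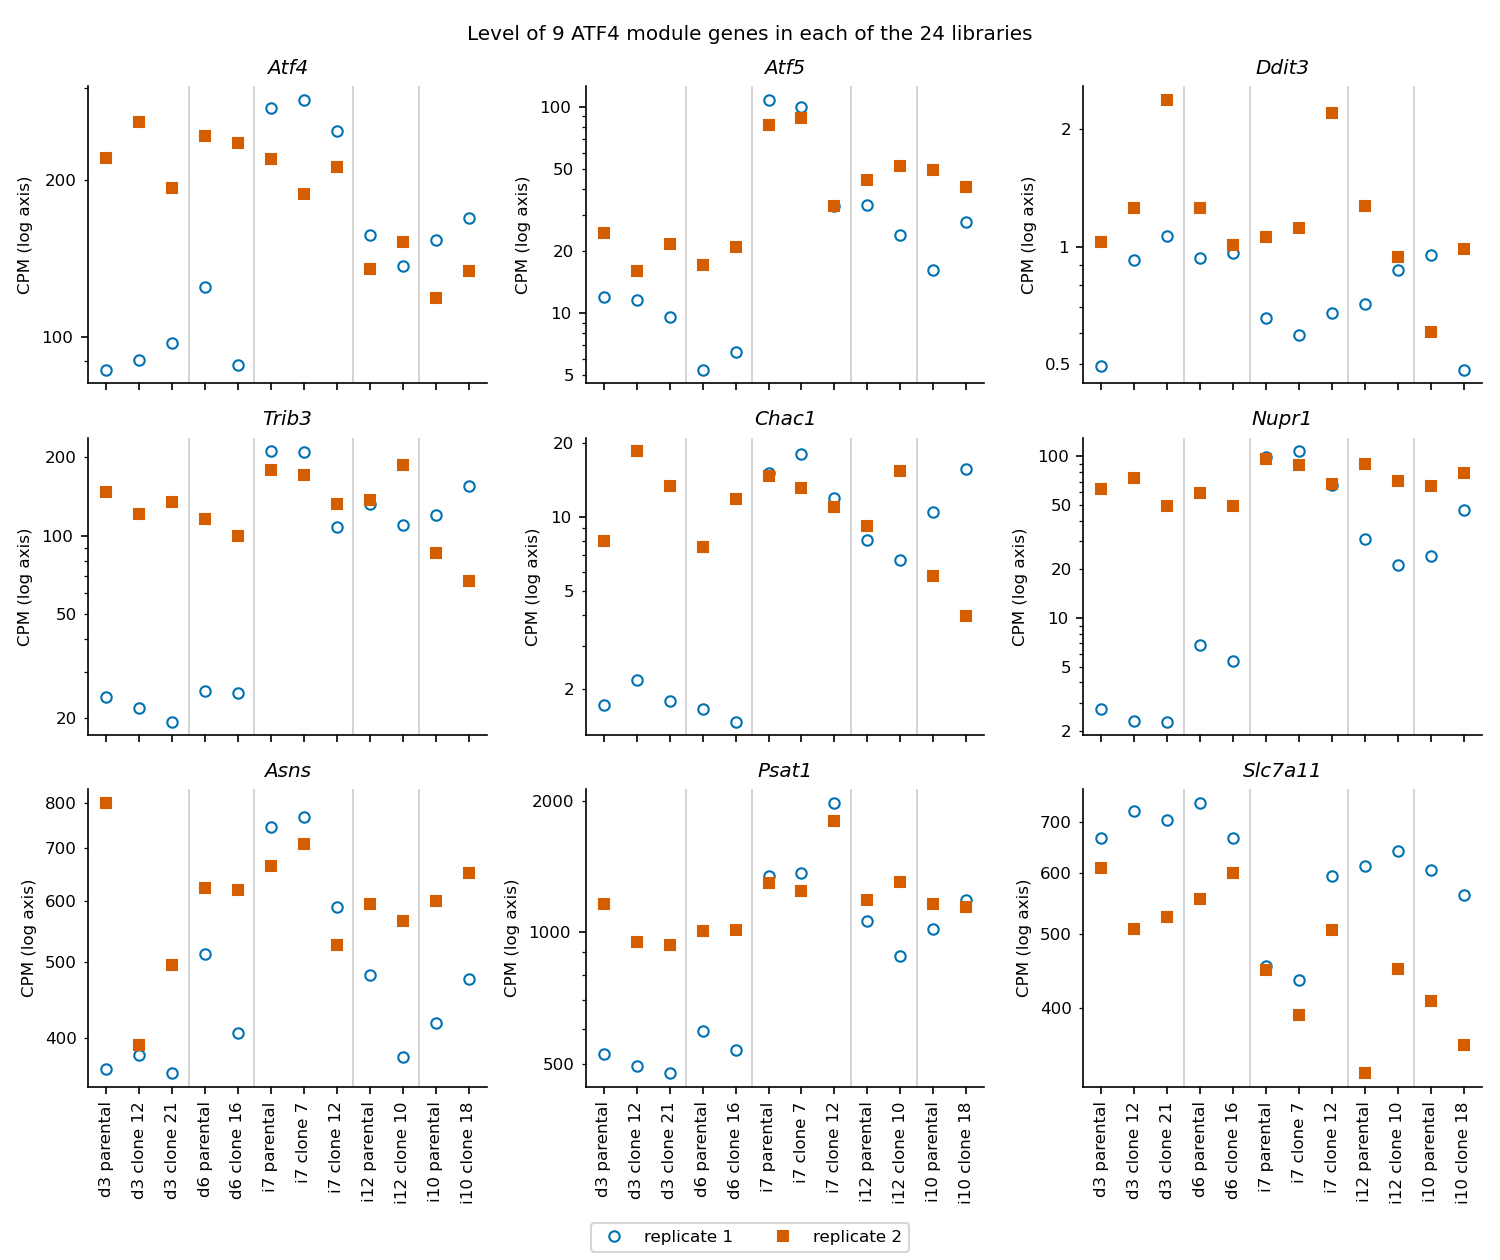
CPM (log axis) of 9 of the genes in each of the 24 libraries, with lines on the horizontal axis and open circles and filled squares for the libraries numbered 1 and 2. For Trib3, Chac1 and Nupr1 the 5 circles of d3 and d6 lie far below the 5 squares. In i7 the circle and square of each line lie close together for these genes, with those of i7 clone 12 below the other i7 lines. For Slc7a11 the order of circles and squares is the opposite.

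Most of the 33 genes differed between replicates of the same line in d3, d6 and i12. In d3, 31 of the 33 genes differed between the libraries numbered 2 and 1, 30 higher in those numbered 2 and 1, Slc7a11, lower, beside a background in which 28.6% of all tested genes were called and 14.6% were called higher. In d6, 27 were higher and 0 lower (19.6% of all genes called, 10.4% higher). In i12, 20 were higher and 1, again Slc7a11, lower (19.4% of all genes called, 10.5% higher). In i10, 4 were higher (Nupr1, Atf5, Aldh1l2 and Slc3a2) and 4 lower (Chac1, Trib3, Slc7a1 and Slc7a11), where 17.7% of all genes were called. In i7, 0 were called by edgeR or by DESeq2, where 4.31% of all genes were called. There 7 had an unadjusted p under 0.05, beside 2773 of all 16253 tested genes. The median log2 difference over the 33 genes was 1.22 in d3, 0.88 in d6, 0.46 in i12, 0.02 in i10 and -0.10 in i7, beside a median over all tested genes between -0.007 and 0.01 in each. The differences come from edgeR's quasi-likelihood test fitted with 1 added coefficient a recombination for its replicate number (the replicate block). They are thus averages over the parental line and its clones. Their standard errors and p-values rest on how alike the difference was in the lines of a recombination. Whether a difference would recur between further cultures was not tested.

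In d3 the 3 libraries numbered 2 were all above the 3 numbered 1 for 30 of the 33 genes and all below for 1, against 19.0% and 19.3% of all tested genes. The counts were 32 and 1 in d6 (30.9% and 31.7% of all genes), 29 and 2 in i12 (31.6% and 30.8%), 12 and 7 in i10 (32.4% and 32.0%) and 1 and 3 in i7 (10.4% and 10.8%). The replicate number is a label only, and the labels do not say what libraries with the same number share. Leaving out a library moved the count by more than 1.5 times in i12 and i10. In i12 it was 9 without either parental library and 6 without either clone 10 library. In i10 it was 2 without either parental library (Chac1 and Trib3) and 4 without either clone 18 library (Nupr1, Atf5, Aldh1l2 and Slc3a2). The replicate difference, taken with its sign, was not equal among the 5 recombinations for 29 of the 33 genes, against 24.7% of all genes. This comes from a joint edgeR quasi-likelihood test that was added after the data had been seen. In it, equal differences of opposite sign count as unequal, although the numbers are labels only.

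**Figure D2:**
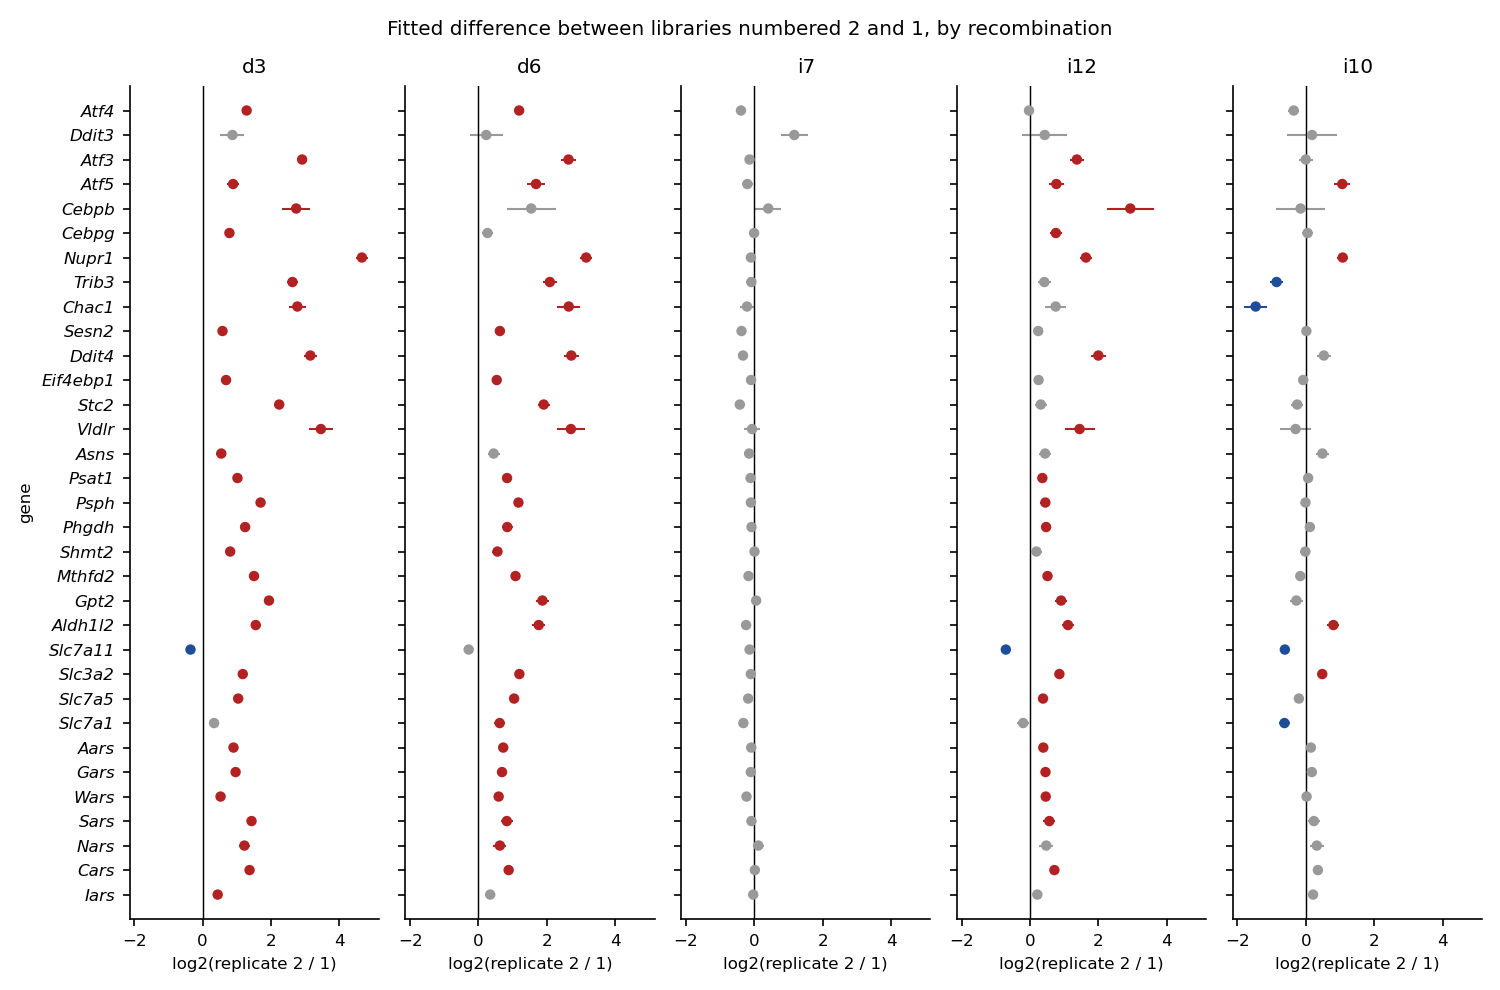
Fitted log2 difference between the libraries numbered 2 and 1 for the 33 genes in each recombination, with bars of 1 standard error; red and blue points are called higher and lower, and grey points are not called. Nearly all points of d3 and d6 are red, none of i7 is coloured, and Slc7a11 is on the negative side in all 5 panels.

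Among the transcription factors, Atf4 (chr15:80255184-80257541, plus strand) differed by 1.29 ± 0.12 (SE; edgeR adjusted p = 1.89e-06) in d3 and by 1.19 ± 0.15 (SE; edgeR adjusted p = 8.50e-05) in d6. Atf4 stood at 86.5, 90.2 and 97.3 CPM in the d3 libraries numbered 1 and at 221, 259 and 193 in those numbered 2, and at 125 and 88.2 against 243 and 235 in d6. In i7 Atf4 stood at 275, 285 and 249 against 219, 188 and 211 CPM, in i12 at 157 and 137 against 135 and 152, and in i10 at 153 and 169 against 119 and 134. The libraries of d3 and d6 numbered 2 were thus all above those numbered 1, the order was the opposite in i7 and i10, and the values overlapped in i12. In these 3 recombinations the differences were not called, at -0.39 in i7, -0.03 in i12 and -0.35 in i10. Atf3, a bZIP factor induced early in stress, rose more. Atf3 stood at 3.64, 3.44 and 3.03 CPM in the d3 libraries numbered 1 and at 25.4, 25.4 and 25.3 in those numbered 2, and at 2.29 and 2.15 against 15.3 and 12.7 in d6. In i7 Atf3 stood at 23.3, 21.4 and 19.2 against 18.6, 20.6 and 18.7 CPM, in i12 at 5.71 and 6.11 against 14.3 and 16.3, and in i10 at 8.20 and 9.67 against 9.67 and 8.30. Its values did not overlap between the numbers in d3, d6 and i12 and overlapped in i7 and i10. The differences were 2.91 ± 0.15 (SE; edgeR adjusted p = 2.51e-09) in d3, 2.63 ± 0.21 (SE; edgeR adjusted p = 1.14e-06) in d6 and 1.37 ± 0.21 (SE; edgeR adjusted p = 3.41e-04) in i12.

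Nupr1 (chr7:126623249-126630861, minus strand), a small stress-induced chromatin protein, had the largest difference of the 33. Nupr1 stood at 2.73, 2.32 and 2.29 CPM in the d3 libraries numbered 1 and at 63.3, 73.4 and 49.3 in those numbered 2, and at 6.87 and 5.41 against 59.2 and 49.6 in d6. In i7 Nupr1 stood at 99.3, 108 and 66.8 against 96.9, 89.0 and 68.0 CPM, in i12 at 30.9 and 21.3 against 89.8 and 70.7, and in i10 at 24.2 and 46.4 against 65.9 and 78.6. It was low in all 5 libraries of d3 and d6 numbered 1, between 21.3 and 46.4 CPM in the 4 libraries of i12 and i10 numbered 1, and 49.3 CPM or above in all others. The log2 difference was 4.66 ± 0.17 (SE; edgeR adjusted p = 4.06e-11) in d3, 3.15 ± 0.18 (SE; edgeR adjusted p = 1.01e-07) in d6, 1.64 ± 0.17 (SE; edgeR adjusted p = 1.65e-05) in i12 and 1.08 ± 0.17 (SE; edgeR adjusted p = 4.03e-04) in i10. Atf5 (chr7:44812256-44816658, minus strand), a bZIP factor that is under translational control like ATF4, differed in the same 4 recombinations. Atf5 stood at 12.0, 11.5 and 9.58 CPM in the d3 libraries numbered 1 and at 24.4, 16.0 and 21.7 in those numbered 2, and at 5.31 and 6.44 against 17.0 and 20.8 in d6. In i7 Atf5 stood at 109, 99.4 and 32.99 against 81.7, 88.3 and 32.96 CPM, in i12 at 33.6 and 23.9 against 44.4 and 51.9, and in i10 at 16.2 and 27.6 against 49.3 and 41.1. The numbers did not overlap in d3, d6, i12 and i10, and in i7 both libraries of clone 12 were far below the other 4. Its differences were 0.89 ± 0.18 (SE; edgeR adjusted p = 0.00196) in d3 and 1.68 ± 0.25 (SE; edgeR adjusted p = 3.14e-04) in d6. Atf5 overlaps Nup62 and Il4i1 on the other strand, and whether the counting used strand is not given in the sources used here.

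Cebpg, a C/EBP protein that can pair with ATF4, stayed within narrower bounds. Cebpg stood at 15.1, 17.9 and 15.3 CPM in the d3 libraries numbered 1 and at 30.3, 25.0 and 28.3 in those numbered 2, and at 19.0 and 21.4 against 23.3 and 25.3 in d6. In i7 Cebpg stood at 54.3, 53.6 and 27.5 against 46.3, 55.2 and 31.1 CPM, in i12 at 23.6 and 19.9 against 39.3 and 34.2, and in i10 at 25.0 and 29.5 against 26.6 and 29.8. The numbers were apart in d3, d6 and i12, with called differences of 0.78 in d3 and 0.76 in i12, while 0.27 in d6 was not called. Cebpb, another C/EBP protein, held 2 to 37 counts per library, and its differences of 2.74 in d3 and 2.93 in i12 were called. Ddit3, which encodes the pro-apoptotic factor CHOP, was hardly expressed, at 2 to 29 counts per library. Ddit3 stood at 0.496, 0.926 and 1.06 CPM in the d3 libraries numbered 1 and at 1.03, 1.26 and 2.39 in those numbered 2, and at 0.936 and 0.963 against 1.26 and 1.01 in d6. In i7 Ddit3 stood at 0.657, 0.593 and 0.677 against 1.06, 1.12 and 2.20 CPM, in i12 at 0.714 and 0.874 against 1.27 and 0.943, and in i10 at 0.954 and 0.484 against 0.604 and 0.988. Its values overlapped between the numbers in d3 and i10 and were apart in d6, i7 and i12, and no difference of Ddit3 was called. At this depth changes of Ddit3 smaller than its counting error were not detectable, and the gene also overlaps Mars and Gm4189 on the other strand.

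Genes of feedback and of stress effectors moved with the factors in d3 and d6. Trib3 (chr2:152337422-152344032, minus strand) encodes a pseudokinase that binds ATF4 and restrains it. Trib3 stood at 24.1, 21.8 and 19.3 CPM in the d3 libraries numbered 1 and at 147, 121 and 135 in those numbered 2, and at 25.4 and 25.0 against 115 and 99.6 in d6. In i7 Trib3 stood at 211, 209.9 and 108 against 178, 171 and 133 CPM, in i12 at 132 and 109 against 137 and 187, and in i10 at 120.2 and 155 against 85.8 and 66.8. The d3 and d6 libraries numbered 1 were all below 26 CPM and every other library was above 66 CPM. Trib3 differed by 2.63 ± 0.16 (SE; edgeR adjusted p = 2.30e-08) in d3, by 2.09 ± 0.20 (SE; edgeR adjusted p = 6.71e-06) in d6 and, in the opposite direction, by -0.85 ± 0.20 (SE; edgeR adjusted p = 0.00659) in i10. Chac1, an enzyme that breaks down glutathione, followed it. Chac1 stood at 1.74, 2.18 and 1.80 CPM in the d3 libraries numbered 1 and at 8.03, 18.5 and 13.4 in those numbered 2, and at 1.66 and 1.48 against 7.56 and 11.9 in d6. In i7 Chac1 stood at 15.1, 18.0 and 12.0 against 14.7, 13.1 and 10.99 CPM, in i12 at 8.09 and 6.70 against 9.18 and 15.3, and in i10 at 10.5 and 15.7 against 5.74 and 3.95. It was near 2 CPM or below in the d3 and d6 libraries numbered 1 and between 3.95 and 18.5 CPM elsewhere. The differences were 2.77 ± 0.24 (SE; edgeR adjusted p = 8.17e-07) in d3, 2.64 ± 0.33 (SE; edgeR adjusted p = 7.50e-05) in d6 and -1.47 ± 0.34 (SE; edgeR adjusted p = 0.00665) in i10.

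Ddit4, an inhibitor of mTORC1 also known as REDD1, was apart between the numbers in d3, d6, i12 and i10. Ddit4 stood at 6.78, 7.01 and 6.14 CPM in the d3 libraries numbered 1 and at 57.9, 51.5 and 69.7 in those numbered 2, and at 7.39 and 8.15 against 54.4 and 48.6 in d6. In i7 Ddit4 stood at 86.6, 79.9 and 75.5 against 59.7, 58.7 and 75.0 CPM, in i12 at 30.5 and 15.9 against 98.7 and 79.0, and in i10 at 28.8 and 46.9 against 56.5 and 51.0. In i7 the order was the opposite, by a margin of under 1 CPM in clone 12. It differed by 3.15 ± 0.18 (SE; edgeR adjusted p = 9.68e-09) in d3, by 2.72 ± 0.22 (SE; edgeR adjusted p = 1.92e-06) in d6 and by 2.00 ± 0.22 (SE; edgeR adjusted p = 2.11e-05) in i12, while 0.53 in i10 was not called. Stc2, a secreted stanniocalcin, was called in d3 and d6, at 2.24 ± 0.14 (SE; edgeR adjusted p = 2.70e-08) and 1.91 ± 0.17 (SE; edgeR adjusted p = 3.74e-06). Stc2 stood at 7.11, 8.27 and 6.22 CPM in the d3 libraries numbered 1 and at 34.2, 34.8 and 33.1 in those numbered 2, and at 12.0 and 10.1 against 41.1 and 41.2 in d6. In i7 Stc2 stood at 62.0, 74.2 and 29.7 against 51.3, 48.4 and 23.0 CPM, in i12 at 29.5 and 30.7 against 29.3 and 46.2, and in i10 at 31.1 and 38.7 against 29.3 and 29.2. Its numbers overlapped in i12 and lay in the opposite order in i10. Vldlr, a lipoprotein receptor, ranged from 0.491 to 20.4 CPM and was called in d3 (3.46), d6 (2.70) and i12 (1.45). Sesn2, a leucine sensor that restrains mTORC1, and Eif4ebp1, a repressor of cap-dependent translation, had smaller called differences in d3 and d6, between 0.53 and 0.68.

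The enzymes of serine synthesis, Phgdh, Psat1 and Psph, were all called higher in d3, d6 and i12. Psat1 (chr19:15904678-15947337, minus strand), which makes phosphoserine, differed by 1.02 ± 0.10 (SE; edgeR adjusted p = 2.05e-06) in d3 and 0.84 ± 0.12 (SE; edgeR adjusted p = 2.41e-04) in d6. Psat1 stood at 527, 494 and 476 CPM in the d3 libraries numbered 1 and at 1161, 948 and 933 in those numbered 2, and at 593 and 538 against 1006 and 1013 in d6. In i7 Psat1 stood at 1344, 1366 and 1978 against 1296, 1245 and 1799 CPM, in i12 at 1060.0 and 882 against 1185 and 1301, and in i10 at 1016 and 1184 against 1159.8 and 1142. The d3 and d6 libraries numbered 1 were the lowest, and the 2 libraries of i7 clone 12 were the highest. Psph, which releases serine in the last step, differed by 1.69 ± 0.12 (SE; edgeR adjusted p = 9.08e-08) in d3. Psph stood at 45.1, 45.9 and 44.6 CPM in the d3 libraries numbered 1 and at 154, 149.8 and 136 in those numbered 2, and at 72.3 and 73.0 against 168 and 159.5 in d6. In i7 Psph stood at 233, 255 and 165 against 232, 223 and 155 CPM, in i12 at 157 and 131 against 173 and 220.2, and in i10 at 158 and 205 against 183 and 176. Its numbers were apart in d3, d6 and i12 and overlapped in i7 and i10. Phgdh, which commits glucose carbon to serine, differed by 1.24 ± 0.13 (SE; edgeR adjusted p = 4.46e-06) in d3. Phgdh stood at 44.5, 52.2 and 45.1 CPM in the d3 libraries numbered 1 and at 133, 96.0 and 109 in those numbered 2, and at 119.7 and 117 against 218 and 206 in d6. In i7 Phgdh stood at 209, 223 and 101 against 183, 204 and 107 CPM, in i12 at 218 and 168 against 283 and 248, and in i10 at 198 and 240.1 against 259 and 217. It was low in all 6 libraries of d3 relative to the i12 and i10 libraries, and in i7 clone 12 it was at about the level of the d3 libraries numbered 2.

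Asns, the asparagine synthetase, had a smaller difference, 0.54 ± 0.15 (SE; edgeR adjusted p = 0.0109), in d3, and was not called in the other recombinations. Asns stood at 365, 380.3 and 361 CPM in the d3 libraries numbered 1 and at 801, 392 and 496 in those numbered 2, and at 513 and 406 against 623 and 619 in d6. In i7 Asns stood at 746, 769 and 589 against 666, 709.6 and 526 CPM, in i12 at 482 and 378 against 595 and 565, and in i10 at 418 and 477 against 600.1 and 650.4. In d3 the spread among the libraries numbered 2 was wider than that among those numbered 1, since clone 12 stayed near the latter. Gpt2, the mitochondrial alanine transaminase, was called higher in d3 at 1.94, in d6 at 1.87 and in i12 at 0.91. Gpt2 stood at 33.7, 34.9 and 35.1 CPM in the d3 libraries numbered 1 and at 109.5, 133 and 159.6 in those numbered 2, and at 60.6 and 55.4 against 217 and 207 in d6. In i7 Gpt2 stood at 141, 147 and 90.9 against 141, 151 and 98.7 CPM, in i12 at 108 and 71.8 against 158 and 172, and in i10 at 139.8 and 195 against 152 and 123. The libraries numbered 2 were above those numbered 1 in d3, d6 and i12, and in i10 the clone and the parental line moved in opposite directions. Aldh1l2, a mitochondrial enzyme of folate metabolism, was called in 4 recombinations, with differences of 1.55 in d3, 1.76 in d6, 1.11 in i12 and 0.81 in i10. Aldh1l2 stood at 5.29, 5.49 and 4.996 CPM in the d3 libraries numbered 1 and at 14.3, 17.9 and 14.2 in those numbered 2, and at 5.31 and 5.70 against 21.9 and 16.3 in d6. In i7 Aldh1l2 stood at 56.0, 53.7 and 17.8 against 40.8, 49.7 and 16.2 CPM, in i12 at 25.0 and 20.1 against 56.1 and 41.7, and in i10 at 17.0 and 27.8 against 34.4 and 42.9. It was lowest in the d3 and d6 libraries numbered 1, and i7 clone 12 was apart from the other i7 lines. The mitochondrial one-carbon enzymes Shmt2 and Mthfd2 were called higher in d3 (0.80 and 1.50) and d6 (0.56 and 1.08), and Mthfd2 also in i12 (0.51).

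Among the amino acid transporters, Slc7a11 (chr3:49892526-50443614, minus strand), the cystine-glutamate exchanger, went the other way. Slc7a11 stood at 668, 723 and 705 CPM in the d3 libraries numbered 1 and at 609, 507 and 526 in those numbered 2, and at 742 and 668 against 556 and 601 in d6. In i7 Slc7a11 stood at 454, 435 and 596 against 449, 391 and 505 CPM, in i12 at 613 and 642 against 328 and 449, and in i10 at 606 and 563 against 408 and 357. In each of the 12 lines the library numbered 2 was below that numbered 1, and the numbers did not overlap in d3, d6, i12 and i10. The differences were -0.36 ± 0.10 (SE; edgeR adjusted p = 0.0179) in d3, -0.71 ± 0.13 (SE; edgeR adjusted p = 0.00132) in i12 and -0.61 ± 0.13 (SE; edgeR adjusted p = 0.00387) in i10. In d6 (-0.29) and i7 (-0.14) they were not called. Slc3a2, the heavy chain that carries Slc7a11 and Slc7a5 to the membrane, was called higher in 4 recombinations. Slc3a2 stood at 295, 302 and 292 CPM in the d3 libraries numbered 1 and at 759, 612 and 643 in those numbered 2, and at 336 and 272 against 722 and 667 in d6. In i7 Slc3a2 stood at 1015, 1005 and 843 against 962, 909 and 801 CPM, in i12 at 523 and 408 against 962 and 731, and in i10 at 478 and 631 against 739 and 796. Its numbers were apart in d3, d6, i12 and i10, with differences of 1.17, 1.20, 0.86 and 0.48. The 2 partners of 1 exchanger thus moved in opposite directions in d3, i12 and i10.

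Slc7a5, the leucine transporter LAT1, was called higher in d3 at 1.04, d6 at 1.04 and i12 at 0.38. Slc7a5 stood at 312, 312 and 303 CPM in the d3 libraries numbered 1 and at 639.6, 640.1 and 625 in those numbered 2, and at 393 and 324 against 751 and 719.6 in d6. In i7 Slc7a5 stood at 952, 962 and 736 against 899, 801 and 648 CPM, in i12 at 645 and 479 against 744 and 704, and in i10 at 572 and 699 against 554 and 546. Its 3 lines of d3 were within 10 CPM of each other among the libraries numbered 1 and within 15 CPM among those numbered 2. Slc7a1, the arginine and lysine transporter, was called higher in d6 at 0.62 and lower in i10 at -0.62. Slc7a1 stood at 733, 716 and 707 CPM in the d3 libraries numbered 1 and at 609, 1110.3 and 1091 in those numbered 2, and at 609 and 618 against 976 and 912 in d6. In i7 Slc7a1 stood at 1384, 1379 and 997 against 1116, 1055 and 835 CPM, in i12 at 909 and 860.4 against 705 and 841, and in i10 at 895 and 930.0 against 616 and 569. In d3 the parental line and the 2 clones moved in opposite directions, so that the numbers overlapped.

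Of the 7 tRNA synthetases, which charge tRNAs with their amino acids, all 7 were called higher in d3, 6 in d6 (not Iars), 5 in i12 (not Nars and Iars) and 0 in i10 and i7. The differences in d3 ran from 0.44 for Iars to 1.43 for Sars. Gars, the glycyl-tRNA synthetase, and Wars, the tryptophanyl-tRNA synthetase, are given as examples. Gars stood at 372, 363 and 349.9 CPM in the d3 libraries numbered 1 and at 874, 650.5 and 617 in those numbered 2, and at 438 and 429 against 719 and 680.2 in d6. In i7 Gars stood at 827, 877 and 680.3 against 779, 829 and 622 CPM, in i12 at 646 and 531 against 845 and 760.3, and in i10 at 637 and 713 against 755 and 769. Gars was apart between the numbers in d3, d6, i12 and i10. Wars stood at 168, 162 and 166 CPM in the d3 libraries numbered 1 and at 266, 229 and 222 in those numbered 2, and at 171 and 161 against 249 and 252 in d6. In i7 Wars stood at 442, 423 and 228 against 373, 352 and 203 CPM, in i12 at 216 and 198 against 269 and 302, and in i10 at 204 and 243 against 223 and 229.5. Wars was apart in d3, d6 and i12 and was lower in both libraries of i7 clone 12 than in the other i7 libraries. Iars stood at 461, 428 and 433 CPM in the d3 libraries numbered 1 and at 465, 718 and 637 in those numbered 2, and at 564 and 537 against 699.6 and 697 in d6. In i7 Iars stood at 757, 798 and 796 against 752, 827 and 728 CPM, in i12 at 678 and 659 against 779 and 770.4, and in i10 at 668 and 699 against 798 and 786. Iars, the isoleucyl-tRNA synthetase, had the narrowest range of all 33 genes.

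Genes outside the 33 were counted in the same fit from lists of related genes. Of all tested genes, 28.6% were called in d3, 19.6% in d6, 19.4% in i12, 17.7% in i10 and 4.31% in i7, in either direction. Whether any list departed from these shares was not tested. Of 20 tested other ATF4 targets, 13 were called higher and 0 lower in d3, 12 and 0 in d6, 9 and 1 in i12, 4 and 2 in i10, and 0 and 1 in i7. Of 13 other cytosolic tRNA synthetases, 5 were called higher in d3 and 4 in d6, with 0 lower in both, and in i12 and in i10 0 were higher and 1, Rars, was lower, with 0 called in i7. Of 18 targets of ATF6 and XBP1, the other branches of the unfolded protein response, 1 was called higher and 6 lower in d3 (Hspa5 among them), 1 and 3 in d6, 1 and 2 in i12, 0 and 5 in i10, and 0 and 0 in i7. A list of 14 genes held the eIF2 kinases, phosphatase subunits and eIF2B, together with Eif2s1, Gcn1l1 and Impact. Of these, Ppp1r15a, the stress-induced phosphatase subunit that is itself an ATF4 pathway gene, was called higher and 4 were called lower in d3. In d6 the counts were 1 (Ppp1r15a) and 3, in i12 1 (Ppp1r15a) and 4, in i10 0 and 1 (Eif2ak1), and in i7 0 and 0.

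Markers of cell states moved with the replicate number. Summed over 8 pluripotency markers, the level was apart between the numbers in all 5 recombinations. It was 7542.8 to 7698.5 CPM in the libraries numbered 1 against 7969.2 to 8113.8 in d3, and 7133.8 to 7236.2 against 7300.7 to 7355.8 in d6. The order was the opposite in i7 (8330.7 to 8539.6 against 7674.5 to 7782.8), i12 (6849.9 to 6966.0 against 6045.6 to 6337.6) and i10 (6569.3 to 6946.2 against 6226.7 to 6430.1). The summed level of 6 fibroblast markers was 8.68 to 12.9 CPM in the d3 libraries numbered 1 and 18.4 to 24.8 in those numbered 2, and 10.7 to 12.9 against 17.2 to 18.6 CPM in d6. In i7 it did not follow the number: it was 29.7 and 28.6 CPM in clone 12 and 17.7 to 19.4 CPM in the other 4 i7 libraries. It was 12.8 to 16.2 against 10.5 to 13.2 CPM in i12, and 11.4 to 13.3 against 4.53 to 6.91 CPM in i10. Of these markers Thy1 reached 24.5 CPM, Pdgfrb 9.14, Col1a1 3.77 and Col1a2 1.43 CPM, and Col3a1 and Postn were at 0 or 1 count. The summed level of 9 differentiation markers was 47.4 to 62.2 CPM in the d3 libraries numbered 1 and 24.7 to 39.1 in those numbered 2, with T (brachyury) reaching 47.8 CPM and Gata6, Sox17, Foxa2 and Fgf5 at 5 counts or fewer. It was 27.5 to 27.9 against 15.9 to 17.4 CPM in d6, 26.7 to 34.5 against 19.4 to 24.3 in i12, 11.8 to 17.9 against 10.3 to 12.4 in i10. In i7 it was 48.6 and 25.2 CPM in clone 12 and 12.5 to 16.5 CPM in the other 4 libraries. Mitochondrial genes held 2.85 to 8.61% of the counts over the 24 libraries, with overlap between the numbers in d3, d6 and i7 and higher values in the libraries numbered 2 in i12 and i10. The part of these values in the replicate differences was not tested.

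Between the 5 parental lines, the joint edgeR quasi-likelihood test called 1 of the 33 genes, Atf5 (edgeR adjusted p = 0.026), where 6.64% of all tested genes were called. The mean of Atf5 in d6 was 11.2 ± 8.28 CPM (SD, n = 2). The mean of Atf5 in d3 was 18.2 ± 8.77 CPM (SD, n = 2). The mean of Atf5 in i10 was 32.7 ± 23.4 CPM (SD, n = 2). The mean of Atf5 in i12 was 39.0 ± 7.65 CPM (SD, n = 2). The mean of Atf5 in i7 was 95.1 ± 19.0 CPM (SD, n = 2). The i7 line stood above all others, and d6, d3 and i10 overlapped in their single libraries. The log2 difference of d3 from i7 was -2.39 ± 0.62 (SE; edgeR adjusted p = 0.0424), where 3.73% of all genes were called, and that of d6 from i7 was -3.12 ± 0.65 (SE; edgeR adjusted p = 0.0252), where 1.13% were called. Atf5 was the 1 gene of the list called in either. The call was lost without replicate 1 of the d6 parental line and without either replicate of the i7 parental line. Without replicate 2 of the d3 parental line, Cebpg was called as well. Cebpg, Wars, Aldh1l2 and Iars had the next smallest p-values and were not called (edgeR adjusted p = 0.0817, 0.0825, 0.13 and 0.178). With the replicate block, 31 of the 33 genes were called, all but Asns and Ddit3, beside 50% (8124) of all genes. The error of that fit leaves out the replicate difference described above.

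No gene of the list was called between a recombined clone and its parental line when the replicate number was left out of the model. By edgeR's quasi-likelihood test the count was 0 of 33 in each of the 7 clones, with 0.0123% of all genes called in d3 clone 12 and in d6 clone 16, 0.0554% in d3 clone 21, 0.0246% in i7 clone 12, and 0.0% in i7 clone 7, i12 clone 10 and i10 clone 18. DESeq2 also called 0 in each. An unadjusted p under 0.05 was reached by 4 of the genes in i7 clone 12, beside 1006 of all 16253 tested genes. It was reached by 0 of the list in the other 6 clones. The count of called genes was 0 between the 2 clones of d3 (0.0492% of all genes called) and between the 2 clones of i7 (0.0923%), with 0 and 5 genes at an unadjusted p under 0.05 (121 and 1347 of all tested genes). It was also 0 for the mean effect over the 5 recombinations and for the test that their effects differ (0.0123% of all genes each), again with 0 genes at an unadjusted p under 0.05, and 0 by DESeq2. The median log2 change over the 33 genes was between -0.08 and 0.14 in 6 of the clones and -0.34 in i7 clone 12, where the median of all genes was -0.003. Without replicate 1 of the d3 parental line, 1 gene, Asns, was called lower in d3 clone 12. In i7 clone 12, 5 genes were called when no filter on low counts was applied, and 5 when only the i7 clone 12 and parental libraries were fitted. The share of all genes called in these fits is not given here, so these counts have no background to be read against.

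With the replicate block, i7 clone 12 was the one clone in which genes of the list were called. There 10 genes were lower and 1 higher than in the i7 parental line, where 6.27% of all tested genes were called and 2.75% were called lower. The other 6 clones had 0 called genes with the block as well, by edgeR and by DESeq2 (0 to 5 genes at an unadjusted p under 0.05, beside 296 to 2618 of all tested genes, and 0.0 to 0.123% of all genes called, with 0.0861% in d6 clone 16). The mean effect over the recombinations and the test that effects differ also gave 0 with the block (0.0431% and 0.08% of all genes called), with 6 genes each at an unadjusted p under 0.05 (912 and 1255 of all tested genes), and 0 by DESeq2. The largest decreases in i7 clone 12 were those of Atf5, at -1.51 ± 0.20 (SE; edgeR adjusted p = 5.42e-04), and of Aldh1l2, at -1.49 ± 0.16 (SE; edgeR adjusted p = 5.98e-05). In CPM, Atf5 was 109 and 81.7 in the parental line and 32.99 and 32.96 in the clone, and Aldh1l2 was 56.0 and 40.8 against 17.8 and 16.2. Both genes were thus lower in each library of the clone than in any of the 4 other i7 libraries. Markers of other cell states also stood apart in this clone. The summed level of the 6 fibroblast markers was 29.7 and 28.6 CPM in clone 12 against 17.7 to 19.4 CPM in the other 4 i7 libraries, with 3 of the 6 at 0 in each of the 6 libraries. That of the 9 differentiation markers was 48.6 and 25.2 CPM against 12.5 to 16.5 CPM, with 3 or 4 of the 9 at 0. Thy1 and T were the genes of these lists called higher in clone 12 with the block. Their part in the result was not tested.

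Stc2 was lower, at -1.11 ± 0.16 (SE; edgeR adjusted p = 6.04e-04), Wars at -0.92 ± 0.12 (SE; edgeR adjusted p = 3.06e-04) and Phgdh at -0.91 ± 0.15 (SE; edgeR adjusted p = 0.00233). Each was lower in both clone 12 libraries than in the other i7 libraries. Cebpg changed by -0.77 ± 0.15 (SE; edgeR adjusted p = 0.00483), Trib3 by -0.69 ± 0.18 (SE; edgeR adjusted p = 0.0361), Nupr1 by -0.54 ± 0.15 (SE; edgeR adjusted p = 0.0402) and Psph by -0.54 ± 0.14 (SE; edgeR adjusted p = 0.0291). The smallest called decrease was that of Slc7a5, -0.42 ± 0.12 (SE; edgeR adjusted p = 0.0458). The 1 gene that rose was Psat1, by 0.51 ± 0.12 (SE; edgeR adjusted p = 0.0167), and its rise was in counts of the CAST allele, as given below. Phgdh and Psph of the same serine pathway fell. Atf4 mRNA itself was not called, at -0.10 ± 0.15 (SE; edgeR adjusted p = 0.787). The call of each of these 11 genes is absent without the block, where their edgeR adjusted p-values were 0.413 or above.

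Against i7 clone 7 the block fit called 12 genes, 11 lower and 1, Psat1, higher (9.76% of all genes called, 4.89% lower). They were the same genes without Slc7a5 and with Gpt2 at -0.65 ± 0.17 (SE; edgeR adjusted p = 0.0254) and Gars at -0.39 ± 0.12 (SE; edgeR adjusted p = 0.0452). Both comparisons use the libraries of clone 12, and i7 clone 7 did not differ from the parental line for any gene of the list. Leaving out 1 library changed the first count by more than 1.5 times. It was 4 without replicate 1 of the parental line or of clone 12, 6 without replicate 2 of the parental line, and 7 without replicate 2 of clone 12 or either library of clone 7. Atf5, Aldh1l2, Stc2 and Wars were called in each of these 6 fits. The count against clone 7 was 9 without either parental library, 6 and 5 without replicate 1 and 2 of clone 7, and 5 and 7 without replicate 1 and 2 of clone 12.

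**Figure D3:**
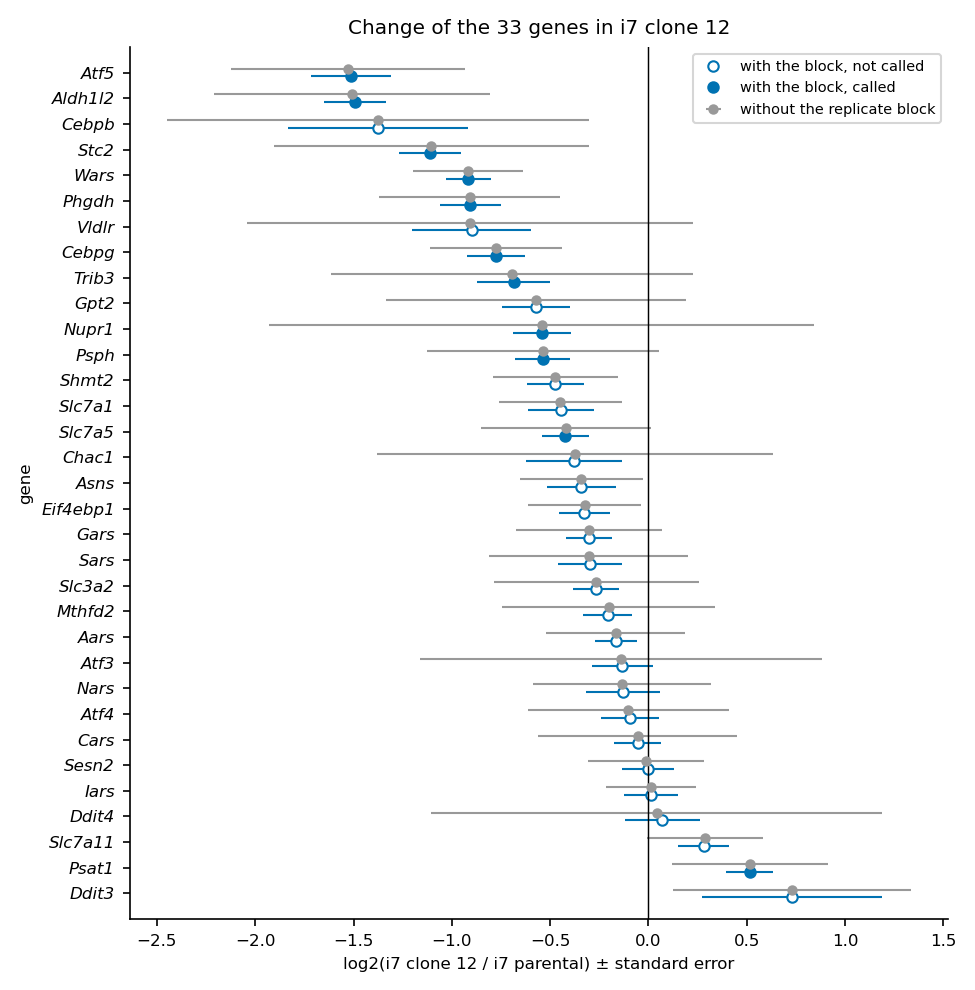
Log2 change of each of the 33 genes in i7 clone 12 against the i7 parental line, with bars of 1 standard error, without the replicate block (grey) and with it (blue, filled where called). The estimates hardly move between the fits and the standard errors shrink with the block, from 0.59 to 0.20 for Atf5. With the block, 28 of the 33 estimates are below 0, where 49.9% of all tested genes are above 0. Clones with no called gene of the list leaned as far, with 27 of the 33 below 0 in d6 clone 16 and 28 above 0 in i10 clone 18.

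In the comparison of i7 clone 12 with its parental line, again with the replicate block and beside 6.27% of all genes called, of 20 other ATF4 targets 7 were called lower (Cth, Slc1a4, Jdp2, Adm2, Pycr1, Vegfa and Slc1a5) and 3 higher (Map1lc3b, Sqstm1 and Ndrg1). Cth is the transsulfuration enzyme that makes cysteine, Slc1a4 and Slc1a5 are neutral amino acid transporters, and Pycr1 makes proline. Of 18 ATF6 and XBP1 targets, 4 were called higher (the chaperones Hspa5, Hsp90b1 and Calr, and the ubiquitin ligase Syvn1) and 1 lower (Sel1l). Of 13 other cytosolic tRNA synthetases 1, Lars, was called lower. Of the 14 genes listed with the eIF2 kinases, 1, Impact, was called higher, which is not itself a kinase, a phosphatase subunit or part of eIF2B. For the last 2 lists 1 call is close to the share of all genes. No gene of these 4 lists was called by edgeR without the block, so these calls rest on it.

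The 2 alleles were compared through the ratio of 129S1 to CAST counts, in 31 of the 33 genes, since Ddit3 and Cebpb had too few counts per allele. Over the 5 parental lines 22 of the 31 genes departed from equality, 9 toward 129S1 and 13 toward CAST, where 69.2% of all tested genes were called. The share called was thus close to that of other genes. Nupr1 had the largest ratio toward 129S1, 2.15 ± 0.09 (SE; edgeR adjusted p = 7.88e-15), with a 129S1 share of 78.8% (95% Wilson interval 77.5 to 80.1%) in the pooled parental counts. Slc7a11 followed at 1.91 ± 0.11 (SE; edgeR adjusted p = 1.63e-12), a share of 79.3% (95% Wilson interval 79.0 to 79.7%). Psph had 1.08 ± 0.04 (SE; edgeR adjusted p = 6.35e-16), and Slc7a1 1.00 ± 0.03 (SE; edgeR adjusted p = 1.31e-16). Aldh1l2 had the largest ratio toward CAST, -1.47 ± 0.12 (SE; edgeR adjusted p = 4.79e-10), a 129S1 share of 25.4% (95% Wilson interval 23.5 to 27.5%). Atf4 was near equality, at 48.1% (95% Wilson interval 47.2 to 49.0%). These intervals cover counting error only. Over the 10 parental libraries the share ran from 74.2 to 87.9% for Nupr1, from 63.9 to 71.9% for Psph, from 64.4 to 68.5% for Slc7a1 and from 20 to 40.6% for Aldh1l2, so none of these 4 crossed 50%.

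On recombination the allelic ratio changed in 3 of the 31 genes, all in i7 clone 12, where 2.33% of all tested genes were called by edgeR. The other 6 clones had 0 (0 to 4 genes at an unadjusted p under 0.05, beside 209 to 662 of all 10795 tested genes, with 3.41% of all genes called in d3 clone 21 and 0.0463% in d3 clone 12 and d6 clone 16, 0.00926% in i7 clone 7 and i12 clone 10, and 0.0% in i10 clone 18). The ratio was tested with edgeR alone. Slc3a2 (chr19:8706882-8723369, minus strand) changed by -1.05 ± 0.12 (SE; edgeR adjusted p = 1.08e-05) and Psat1 by -0.96 ± 0.15 (SE; edgeR adjusted p = 3.72e-04), both away from 129S1, while Nupr1 changed by 0.85 ± 0.20 (SE; edgeR adjusted p = 0.022), away from CAST. The 129S1 share of Psat1 was 48.1, 48.6 and 32.9% in the parental line, clone 7 and clone 12 numbered 1, and 49.5, 50.7 and 32.9% in those numbered 2. For Slc3a2 these shares were 45.1, 44.3 and 28.5% and 45.6, 44.5 and 28.7%. For Nupr1 they were 74.2, 75.4 and 84.5% and 74.5, 73.8 and 83.5%. In all 3 genes both clone 12 libraries were outside the range of the other 4 i7 libraries. Against clone 7 the same 3 genes were called (2.38% of all genes), and with the replicate block (3.19% of all genes) also Vldlr, at -1.07 ± 0.25 (SE; edgeR adjusted p = 0.0161). Against the parental line the block fit called the same 3 genes, beside 2.86% of all genes. The block fit further called 1 gene, Slc3a2, for the mean effect over the recombinations, at -0.14 ± 0.04 (SE; edgeR adjusted p = 0.0484) (2.7% of all genes called), where the fit without it called 0 beside 2.51% of all genes, with 2 genes at an unadjusted p under 0.05 (770 of all tested genes). Leaving out either library of the parental line or of clone 12 ended the call of Nupr1 and left those of Slc3a2 and Psat1.

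The counts per allele, scaled to the effective library size, show on which allele the level differed. Psat1 from CAST rose from 697 and 655 CPM in the i7 parental line to 1328 and 1207 CPM in clone 12, while the 129S1 allele stayed at 647 and 641 against 649.8 and 592 CPM. For Slc3a2 the 129S1 allele went from 458 and 438 to 240.4 and 230.0 CPM, and the CAST allele was 557 and 523 against 602 and 571 CPM. Vldlr (chr19:27216484-27254231, plus strand) went from 9.07 and 8.14 to 2.90 and 3.33 CPM on 129S1 and from 8.80 and 8.67 to 5.22 and 6.97 on CAST, a change of ratio that was not called against the parental line (-0.94 ± 0.30 (SE; edgeR adjusted p = 0.19)). These 3 are the members on chromosome 19, and in all 3 the 129S1 share was lower in clone 12. Pooled over libraries, it was 32.9% for Psat1, 28.6% for Slc3a2 and 33.6% for Vldlr in clone 12. In the i7 parental line it was 48.9, 45.4 and 49.4%. The cause of this shared direction was not tested. Nupr1, on chromosome 7, was lower on both alleles, from 25.6 and 24.8 to 10.4 and 11.2 CPM on CAST and from 73.7 and 72.2 to 56.4 and 56.7 CPM on 129S1. With counts of the 129S1 allele alone the change of Psat1 in clone 12 was -0.02 (edgeR adjusted p = 1), so its rise rests on CAST counts.

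**Figure D4:**
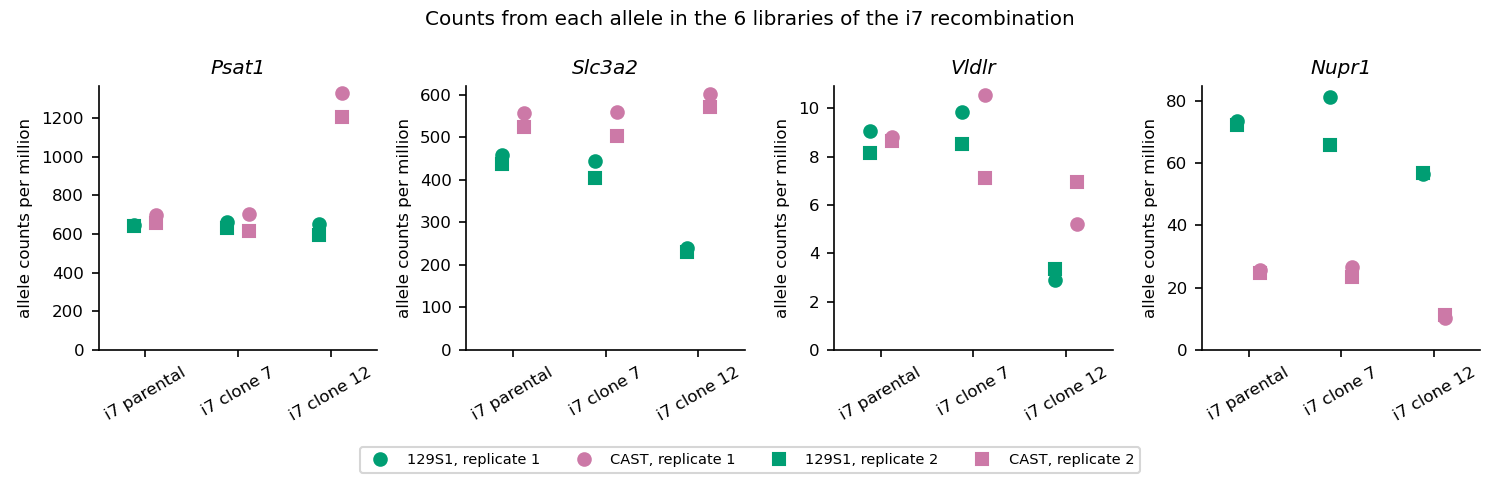
CPM assigned to the 129S1 (green) and CAST (pink) allele for the 3 genes on chromosome 19 and for Nupr1 in the 6 i7 libraries, with circles and squares for the libraries numbered 1 and 2. In clone 12 the CAST points of Psat1 stand at 1328 and 1207 while its 129S1 points stay near those of the other lines, and the 129S1 points of Slc3a2 drop to 240.4 and 230.0.

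The allelic ratio was also compared between the replicate numbers, in a comparison added after the data had been seen. It was called for 3 of 31 genes in d3 (1.98% of all genes), 1 in d6 (1.4%), 1 in i7 (3.3%), and by edgeR for 0 in i12 (0.0648%) and 0 in i10 (0.0926%), with 3 genes at an unadjusted p under 0.05 in each of the last 2 (865 and 882 of all tested genes). Trib3 differed by 1.09 ± 0.13 (SE; edgeR adjusted p = 2.50e-04) in d3 and by 0.68 ± 0.16 (SE; edgeR adjusted p = 0.0403) in d6. Its 129S1 share was 24.1, 21.0 and 26.3% in the d3 libraries numbered 1 and 38.0, 40.4 and 40.9% in those numbered 2, and 38.9 and 32.3% against 49.0 and 44.6% in d6. The numbers did not overlap in either. In counts per allele the d3 libraries went from 5.79, 4.57 and 5.08 to 56.0, 48.8 and 55.2 CPM on 129S1 and from 18.3, 17.2 and 14.3 to 91.3, 71.9 and 79.7 CPM on CAST, so both alleles were higher and 129S1 by the larger factor. In i7, where the total hardly differed, the share was 42.9, 41.3 and 42.3% against 43.9, 42.0 and 42.0%. The call in d3 held without each single library, and the call in d6 was lost without any 1 of its 4 libraries.

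Slc7a11 differed in i7 by 0.78 ± 0.17 (SE; edgeR adjusted p = 0.0096). Its 129S1 share there was 70.3, 69.7 and 78.9% in the libraries numbered 1 and 82.5, 82.4 and 82.5% in those numbered 2, so the parental line and clone 7 shifted and clone 12 hardly did. The share was 81.4, 81.5 and 81.3% against 81.4, 88.9 and 80.8% in d3 and 81.0 and 81.5% against 70.1 and 80.1% in d6, where single libraries stood apart. The i7 call was lost without any 1 of the libraries of the parental line and of clone 7, and without either clone 12 library Phgdh was called as well. Psat1 in d3 differed by 0.31 ± 0.07 (SE; edgeR adjusted p = 0.0206) and Wars in d3 by -0.35 ± 0.08 (SE; edgeR adjusted p = 0.0294). Both of these calls were lost without any 1 library of clone 12 or clone 21, and 1 of them without replicate 1 of the parental line.

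**Figure D5:**
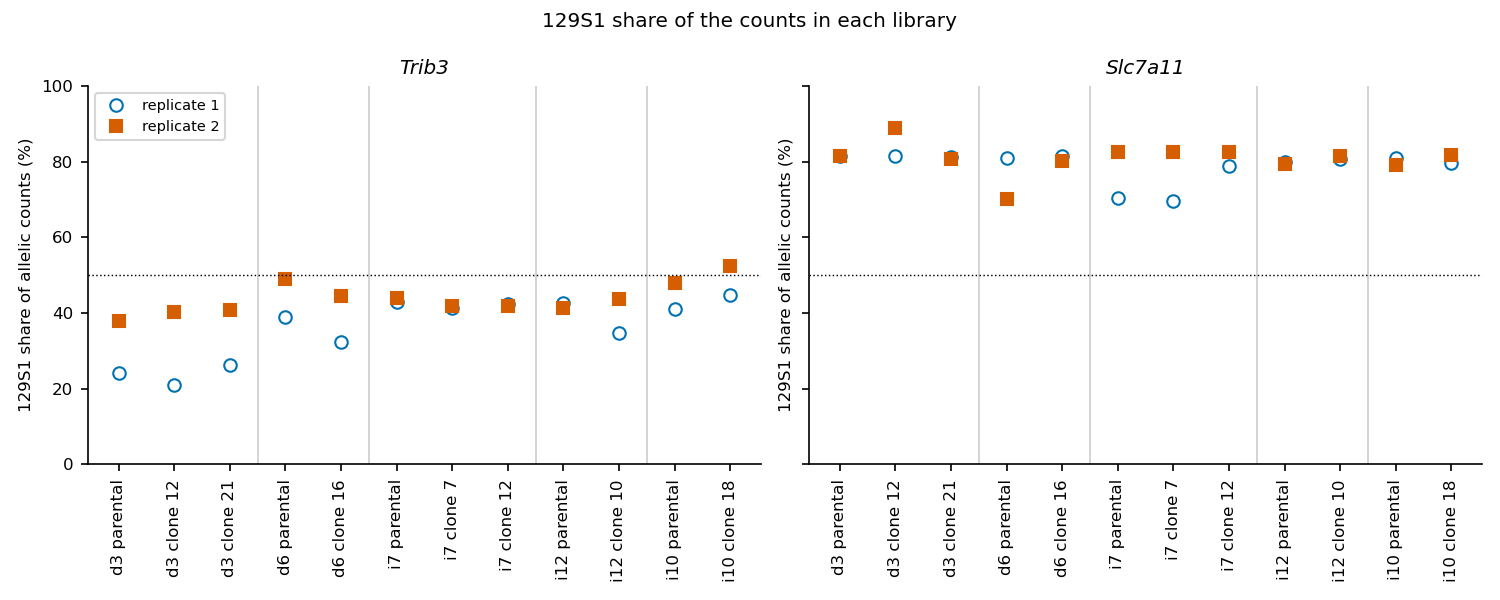
Share of allelic counts assigned to 129S1, in percent, for Trib3 and Slc7a11 in each of the 24 libraries, with open circles and filled squares for the libraries numbered 1 and 2 and a dotted line at 50%. The d3 circles of Trib3 lie at 21.0 to 26.3%, below all other points, and the i7 circles of Slc7a11 for the parental line and clone 7 lie at 69.7 and 70.3%.

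The genes whose pattern was most like that of Atf4, by Pearson's r of log2 CPM after subtraction of the mean of each line, over the 24 libraries, were Ciart (r = 0.973), Stc2 (0.965), S1pr3 (0.964), Pgm1 (0.961) and Fubp1 (0.960), of which Stc2 is in the list. With the mean of each line removed, r reflects the replicate difference within lines. The median r to Atf4 was 0.856 over the 33 genes, Atf4 included, and -0.019 over all tested genes. Slc7a5 (0.949), Trib3 (0.940) and Chac1 (0.937) came next in the list, while Asns (0.594), Ddit3 (0.258) and Slc7a11 (-0.271) were least like Atf4.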

How the data were processed

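Poly(A) RNA was sequenced as 75-base single-end reads from a stranded mRNA library kit, per the labels' protocols, and the table deposited by the authors holds raw counts per gene and allele. The submitters' processing notes name STAR, SAMtools and mm10. Versions, the counting tool, its strand setting and the handling of reads that do not tell the alleles apart are not given in the sources used here. The 129S1 and CAST counts of a library were summed, so each total covers reads assigned to an allele. Counts were tested with edgeR 4.0.16 (R 4.3.3): TMM scaling, the filter on low counts over 12 groups, and the quasi-likelihood test over 16253 genes with 12 residual degrees of freedom. The replicate block added a term for replicate number within each recombination (7 residual degrees of freedom). The allelic ratio was fitted to the 48 allele columns for the 10795 genes that averaged 10 counts or more on each allele, with a term per library. DESeq2 1.42.0, other scalings and filters, single alleles, smaller fits and leaving out each library were alternatives. The edgeR fits for a clone against its parental line, for a replicate difference and for a change of allelic ratio were tested on simulated data. The joint tests and the DESeq2 fits were not.

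Libraries with the same replicate number in a recombination deviated together over genes (9 pairs, r from 0.358 to 0.688, median 0.549), against -0.205 to 0.603, median 0.205, for 57 pairs from different recombinations, so the 2 ranges overlap. The pairing comes from these values and not from the labels. Without the block, p-values measure the spread between these duplicates. With the block, they measure the spread left after the shared replicate difference of a recombination is removed. For a replicate difference itself, in level or in allelic ratio, that spread is between the lines of a recombination. Such p-values do not say whether the difference would recur between cultures. The 33 genes, the lists of related genes and markers, and the tests were chosen with earlier results of these data known. Values in every library were given for Atf4, Ddit3, Trib3, Asns, Chac1, Psat1 and Slc7a11, for each gene called in a clone, clone-to-clone or mean comparison with or without the block, for the 5 with the smallest p in the joint test of the parental lines and for a replicate difference, and for the 5 with the largest called allelic ratios or a called change of ratio. The sequence of 1 further promoter match is not reported here. For the related lists, 20 of 21 other ATF4 targets were tested. Pluripotency and 2-cell markers were also tallied, and of the latter Zscan4c, Zscan4d, Zscan4f and Usp17lc were at 0 in every library and Tcstv3 at 0 to 39 counts.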

Additional observations from a re-analysis of the deposited data

Results flagged for a closer look

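The difference between the libraries numbered 2 and 1, taken with its sign, was unequal among the 5 recombinations for 29 of the 33 genes. The joint test with edgeR was added after the data had been seen, and it called 24.7% of all tested genes. It counts equal differences of opposite sign as unequal. In d3 and d6 most of these genes were higher in the libraries numbered 2, and in i7 no gene was called. The edgeR adjusted p-values of that test are in parentheses below. They rest on the spread between lines of a recombination and do not say whether a difference would recur between cultures.

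Among the transcription regulators it was called for Nupr1 (1.67e-08), Atf3 (4.32e-07), Atf4 (1.22e-05), Atf5 (0.00177), Cebpg (0.0105) and Cebpb (0.0192). Among feedback genes and stress effectors it was called for Stc2 (9.09e-07), Trib3 (9.09e-07), Ddit4 (9.09e-07), Chac1 (8.52e-06), Vldlr (1.27e-04), Sesn2 (0.00154) and Eif4ebp1 (0.00428). The enzymes were Mthfd2 (6.13e-06), Psph (9.80e-06), Gpt2 (1.10e-05), Aldh1l2 (3.08e-05), Psat1 (1.67e-04), Phgdh (5.36e-04) and Shmt2 (0.00906). Of the transporters it was called for Slc7a5 (2.47e-05), Slc3a2 (3.78e-05) and Slc7a1 (0.00438), and of the tRNA synthetases for Cars (6.51e-05), Aars (2.94e-04), Gars (4.10e-04), Sars (4.62e-04), Wars (0.00168) and Nars (0.0136). Ddit3, Asns, Slc7a11 and Iars were not called, and of these Slc7a11 was lower in the library numbered 2 in each of the 12 lines.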

How the results depend on the processing

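In all, 24 counts of called genes were recomputed under 406 alternatives, of which 333 stayed within 1.5 times, and 141 changes of single genes under 1839 alternatives, of which 1429 kept their direction and side of the threshold, 161 lost the call, 245 gained it and 4 reversed. The cause was not tested unless stated. With DESeq2 size factors or the stricter filter of a mean of 50 counts alone, no count moved. Apart from the replicate block alone, the shares of all genes called under the alternatives are not given here. Their counts below thus have no background to be read against.

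With the replicate block, whose pairing rests on the correlations and not on the labels, the counts were 11 for i7 clone 12 against its parental line, 12 against clone 7 and 31 for the joint test of the parental lines. The block together with another choice, tried after seeing the data, gave 11, 13 and 31 with DESeq2 size factors, 10, 11 and 30 with DESeq2, 15, 15 and 32 with no filter, 11, 13 and 30 with the stricter filter, 9, 11 and 29 with 129S1 counts, and 9, 11 and 30 with CAST counts. With the block and no filter, 2 genes were called in d3 clone 12 and 3 for unequal effects of the recombinations. The block called 0 in the other comparisons of summed counts between clones, by edgeR and DESeq2.

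Without the block, these 3 counts (0, 0 and 1) became 5, 4 and 23 with no filter and 5, 6 and 0 with only the libraries of the comparison, a fit with fewer samples. The joint test also gave 3 with DESeq2 (Wars, Atf5 and Cebpg) and 2 with 129S1 counts. Between replicate numbers, i7 gave 1 with no filter and 2 with CAST counts, and i12 gave 12 with CAST counts, all with the block. With 129S1 counts the change of Psat1 in i7 clone 12 reversed, to -0.0237 against the parental line and -0.0328 against clone 7, and with the block to -0.0255 and -0.0336.

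Leaving out 1 library, where the lone sample of a line is assumed to vary like the other lines, gave 0 to 1 for d3 clone 12 and 0 to 2 for the joint test of the parental lines. Between replicate numbers the range was 29 to 31 genes for d3, 19 to 23 for d6, 6 to 9 for i12 and 2 to 4 for i10. For the allelic ratio it gave 20 to 22 for the parental lines and 2 to 3 for the clones, and between replicate numbers 1 to 3 for d3, 0 for d6 and 0 to 2 for i7. With the block, i7 clone 12 gave 4 to 7 against its parental line and 5 to 9 against clone 7. The other counts stayed at 0.

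No fit to only the libraries of the comparison was run for the mean effect or for unequal effects, which use all lines. With 2 libraries per line, a depth of 3286819 counts in the shallowest and 2 to 29 counts for Ddit3, small changes of the least expressed genes were not detectable.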
